A study of Mus musculus with 24 samples.

Results

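Naive CD4 T cells lacking TRIM28 (KO) were compared with cells of wild-type littermates (WT) after 24 h of stimulation through the T cell receptor. The comparison rests on 6 of the 24 arrays of the study, KO arrays 1 to 3 and WT arrays 1 to 3, and on all 22180 annotated genes, each represented by the probe set with the highest mean over all arrays. The other 18 arrays hold KO and WT cells at 0, 4 and 72 h, with 3 arrays in each group, and were used for the shared estimate of the spread and for the comparison of times. Cells of all groups were enriched on magnetic beads and purified by flow cytometry. Those of 4, 24 and 72 h were stimulated with anti-CD3 bound to the plate and anti-CD28 in solution. The labels call the mutant animals TRIM28KO, and nothing in them names the promoter or Cre line that drove the deletion, the strain, the age, the sort gate or how many animals an array stands for.

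TRIM28 (KAP1) is a scaffold protein that KRAB zinc finger proteins bring to DNA, where it gathers the histone methyltransferase SETDB1, HP1 proteins and the NuRD complex to silence transposable elements and some genes. A naive T cell is small and quiescent, and its receptor together with CD28 starts cytokine transcription, switches off the genes of quiescence and raises ribosome production, metabolism and finally division. The first day of stimulation is the phase of growth that precedes most divisions.

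Values are log2 RMA values, a scale on which a difference of 1 is a 2-fold change. The 6 arrays had medians between 3.64 and 3.69, and the correlation of arrays within a genotype lay between 0.983 and 0.992. In both genotypes array 3 carried the Y-linked transcript Eif2s3y, at 8.34 in KO and 7.995 in WT, and arrays 1 and 2 carried Xist, at 10.02 and 9.89 in KO and at 9.94 and 10.1 in WT. The CD4 T cell markers were high, with a mean over 7 of them of 10.3, 10.1 and 10.2 on the KO arrays and 10.2, 10.1 and 10.02 on the WT arrays. Their receptor components Cd3d, Cd3g and Cd3e rose by 0.40, 0.25 and 0.20 in KO, and the adhesion molecule gene Cd2 rose by 0.77. Thy1 fell by 0.56, whereas Cd4 (change -0.19, adjusted p = 0.061) and Cd5 (-0.04, adjusted p = 0.684) did not pass the threshold. The call of Cd3e was lost on leaving out KO array 1 (adjusted p = 0.236), KO array 3 (0.0544), WT array 2 (0.164) or WT array 3 (0.0545).

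Markers of other cells were few and low, with B cell markers as the exception. Of 13 B cell markers 4 were higher in KO and 0 lower, with a median of 0.74, and their mean level was 5.63, 4.95 and 5.18 on the KO arrays and 4.50, 4.28 and 4.59 on the WT arrays. The KO values lay above all WT values and KO array 1 was the highest. All 13 changes were positive, and Ly6d (3.06), Pax5 (0.75) and Bank1 (0.74) were among the 4 called. Fcer2a, the low-affinity IgE receptor CD23, was called at a change of 1.32. That call ended without KO array 1 (0.94, adjusted p = 0.167) or WT array 2 (0.95, adjusted p = 0.131). Ms4a1 (0.77, adjusted p = 0.115), Cd79a (1.05, 0.0854) and H2-Aa (1.17, 0.056) were not called in the main fit, but were with a replicate block. Without KO array 1 or WT array 2 only 1 of the 13 was called, and 2 were without KO array 3 or WT array 1, against 6 without KO array 2. The part of these markers in the results that follow was not tested. Of 19 myeloid and 6 erythroid or platelet markers 0 passed in either direction, of 7 natural killer and innate lymphoid markers 1 (Id2, 0.44) was higher, and of 8 CD8 T cell markers 3 were lower. Since the samples are bulk RNA, fewer cells of a type and less RNA per cell cannot be told apart in any result.

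In all, 2501 genes (11.3%) passed the threshold of an adjusted p below 0.05 in limma, 865 of them higher (3.9%) and 1636 lower (7.38%) in KO. The 3 KO arrays and the 3 WT arrays did not overlap for 27.2% of all genes, with KO above WT for 8.37% and below for 18.8%. Of the 2501 called genes 2414 had no overlap, so separate groups add little to a call. Changes of at least 2-fold had the opposite balance: 104 of 129 such genes were higher and 25 were lower. The 104 had a median WT level of 5.24 and the 25 a median WT level of 6.92. The median change of all genes was -0.05. With quantile normalization run again the calls numbered 2159, of which 53.3% were higher against 34.6% in the deposited scaling, with 1150 genes higher and 1009 lower, so the balance of the 2 directions depends on the scaling. KO array 1 carried much weight: without it 1269 genes passed, 514 higher and 755 lower, and without WT array 1 the genes lower in KO numbered 963.

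**Figure D1:**
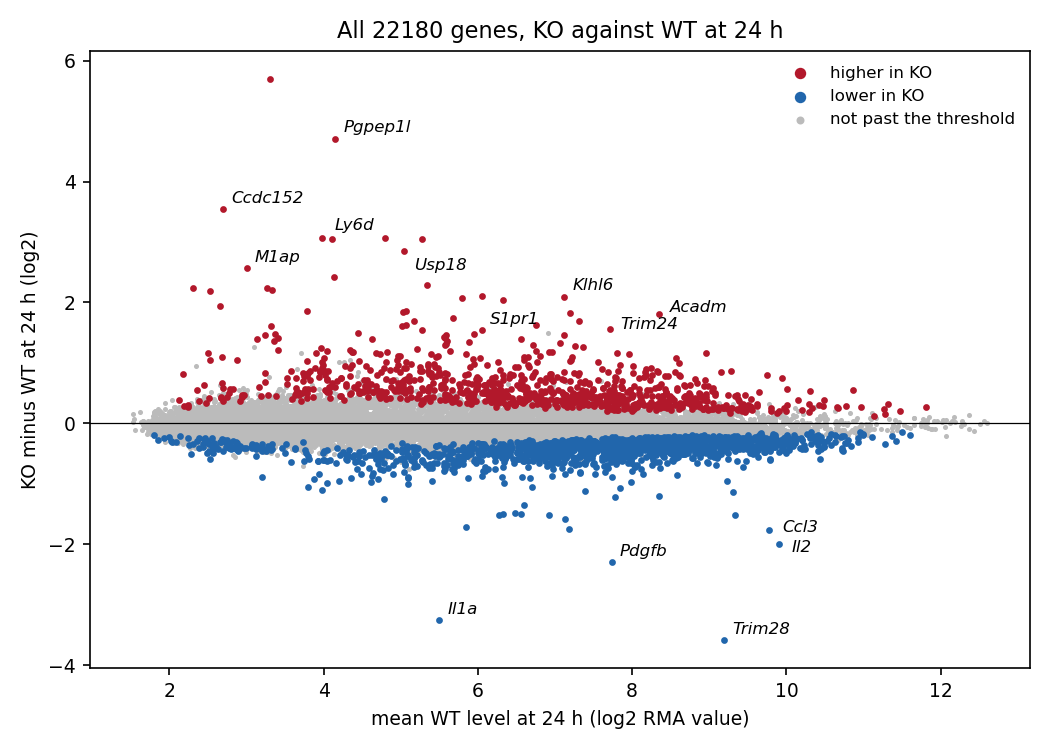
Change between KO and WT at 24 h (vertical axis, log2) against the mean WT level at 24 h (horizontal axis, log2 RMA value) for each of 22180 genes, with the 865 genes higher in KO in red, the 1636 lower in blue and the rest in grey. The rises reach further than the falls, and most falls are small changes of genes with a middle or high level; 1 predicted gene above Pgpep1l is not labelled.

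The targeted gene came first. Trim28 stood at 5.66, 5.63 and 5.53 on the KO arrays and at 9.09, 9.21 and 9.26 on the WT arrays. The groups were far apart, and the WT level was 11.9-fold that of KO (change -3.58, SE 0.13, adjusted p = 2.53e-16). Whether its probes lie inside the deleted exons is unknown here, so the value checks the labels only so far. In a list of 26 genes, Trim28 itself with its partners and other silencing factors, 4 were higher and 6 lower. Trim28 is 1 of the 6. Trim24, which encodes a relative of TRIM28 in the same protein family, rose by 1.56 (SE 0.08) and the NuRD helicase gene Chd3 by 0.59. Setdb1, the histone H3 lysine 9 methyltransferase that TRIM28 recruits, was at 8.94, 8.93 and 8.97 in KO and 8.27, 8.23 and 8.18 in WT. The arrays of each group lay close together, and the rise of 0.72 was called (adjusted p = 2.95e-08). Dnmt3a, a de novo DNA methyltransferase gene, fell by 0.40, a call that ended without KO array 1 (-0.30, adjusted p = 0.139) or WT array 3 (-0.37, adjusted p = 0.0561). The number of genes of this list lower was 3 without KO array 1, Trim28 still counted. A further list held the 336 genes named Zfp and a number, taken by name and not by a KRAB domain. Of these 14 were higher (4.17%) and 13 lower (3.87%), against 3.9% and 7.38% of all genes. Zfp53 rose by 0.78 and Zfp831 by 0.72. The counts were 6 higher and 5 lower without KO array 1, and 11 higher and 5 lower without KO array 2. They were 5 higher and 9 lower on dropping WT array 1. A repeat of quantile normalization gave 21 rises and 6 falls. Of 19 germline genes, a class that silencing keeps off in body cells, M1ap (2.56) and Tdrd9 (1.40) were higher and 0 were lower.

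Pgpep1l, which encodes a pyroglutamyl peptidase-like protein, had the highest of the named rises, at 9.02, 8.81 and 8.74 in KO against 4.59, 4.17 and 3.69 in WT, or 26.1-fold. Ccdc152 stood at 6.68, 5.65 and 6.39 in KO and at 2.66, 2.63 and 2.80 in WT, a change of 3.54 that gives no exact fold, since the WT values were near the bottom of the range. The groups of both genes were far apart, and Ccdc152 lay below the median WT gene of 3.71. Genes known from other tissues were also among the rises, namely the vomeronasal receptor gene Vmn2r96 (2.24), the meiotic gene M1ap, the cilia assembly gene Lrrc6 (2.43) and Ly6d (3.06), an antigen of the early B lineage that is also 1 of the B cell markers above. BC018473 rose by 3.07. M1ap was at 5.67, 5.62 and 5.41 in KO and at 3.23, 2.92 and 2.85 in WT. Gstt1, a theta class glutathione transferase, was at 8.20, 6.73 and 6.51 in KO and 4.20, 4.04 and 4.08 in WT, and KO array 1 was the highest. The remaining named rises were in Usp18 (2.85), the deconjugase of ISG15 that restrains the type I interferon receptor, the IFI200 genes Ifi214 (2.23) and Ifi208 (2.19), the Ifit relative Ifit1bl1 (2.21), the nucleoside transporter gene Slc28a2b (2.11), the BTB adaptor gene Klhl6 (2.10) and the deubiquitinase gene Otud1 (2.07). All of these were called in each fit that left out 1 array.

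Several of the largest rises were in neighbouring genes. Of 21981 genes placed on the RefSeq map, 19% of the higher genes lay beside another higher gene, against 7.44% of all placed genes, and 21.5% of the lower genes lay beside a lower one, against 14.1%. The pairs with the highest changes were Ifi209 (2.04) with Ifi208, Ifi214 with Ifi213 (1.94), and Ifi213 with Ifi209, all on chromosome 1, Gstt3 (1.86) with Gstt1 on chromosome 10, and Selenop (1.43) with Ccdc152 on chromosome 15. Selenop, which encodes the selenium carrier protein, stood at 7.37, 6.85 and 6.74 in KO and 5.55, 5.60 and 5.52 in WT. It overlaps Ccdc152 in the annotation, and the Ifi200 and Gstt genes are close paralogues, so probes of 1 may report RNA of its neighbour. Of 16 glutathione transferase genes 5 rose and 1 fell, the fall not being called without KO array 1. Gstt2 rose by 1.17, Gstt4 by 1.16 and the membrane-bound Mgst2 by 0.95.

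**Figure D2:**
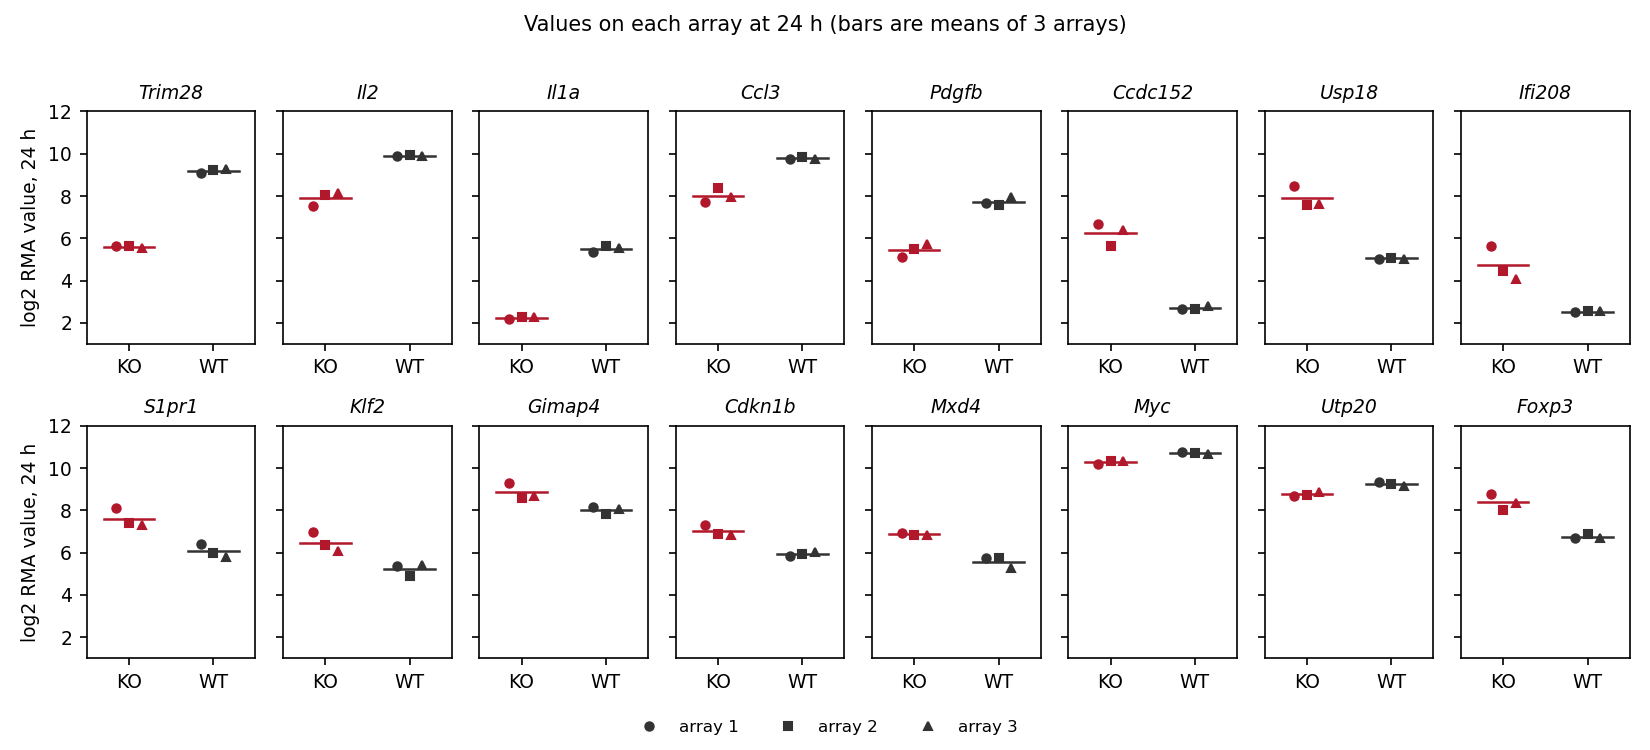
Log2 RMA values at 24 h on each array for 16 genes (KO left in red, WT right in black; circles, squares and triangles are arrays 1, 2 and 3, and lines are means of 3 arrays). Changes run from -3.58 for Trim28 to 3.54 for Ccdc152. KO and WT arrays do not overlap for any of the 16 genes, which for the highest and lowest changes was a condition of naming.

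The deepest falls included secreted products of the activated T cell. Il1a, which encodes the cytokine interleukin 1 alpha, stood at 2.19, 2.27 and 2.28 in KO and at 5.33, 5.64 and 5.53 in WT. The KO values were at the bottom of the array's range, next to the mean WT level of 2.30 before stimulation, so the change of -3.25 (SE 0.12, adjusted p = 3.02e-16) gives no exact fold. Il2, the main T cell growth factor, was at 7.52, 8.05 and 8.16 in KO and at 9.90, 9.94 and 9.88 in WT. In WT it had risen by 6.998 over 0 h, and in KO it lay 3.99-fold below WT (change -1.996, SE 0.18, adjusted p = 1.99e-08). The chemokine gene Ccl3 (MIP-1 alpha) was at 7.70, 8.38 and 7.96 in KO and 9.76, 9.82 and 9.75 in WT, and Ccl4 (MIP-1 beta), which overlaps it in the annotation, fell by 1.34. Pdgfb, the B chain of platelet-derived growth factor, was at 5.10, 5.50 and 5.73 in KO and 7.66, 7.57 and 7.97 in WT. The KO arrays of Il2, Ccl3 and Pdgfb spread more than the WT arrays and stayed below them, with array 1 the lowest in each.

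The other named falls were the chromatin reader gene Spin4 (-1.74), the interferon-induced transmembrane gene Ifitm2 (-1.71), Rpp25, a subunit of RNase P and RNase MRP (-1.59), Ifih1, which encodes the RNA sensor MDA5 (-1.52), the polo-like kinase gene Plk2 (-1.52), the endosome tether gene Eea1 (-1.51), the prostaglandin E2 receptor gene Ptger2 (-1.50), Farp1 (-1.50) and the metallothionein gene Mt1 (-1.47). Eea1 was at 7.71, 7.85 and 7.91 in KO and 9.35, 9.34 and 9.32 in WT. Its groups were among the tightest of the named genes.

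Of 35 cytokine genes 8 were lower and 2 higher in KO, with a median of -0.04, and of 16 chemokine genes 2 were lower and 1 higher. Without KO array 1 or WT array 2 the lower cytokine genes numbered 5. Ccl22, a ligand of CCR4, was called at 1.84 with values of 7.71, 5.33 and 7.59 in KO and 5.15, 4.41 and 5.55 in WT. KO array 2 lay inside the WT range, and the call ended without KO array 1 (1.43, adjusted p = 0.0917), KO array 3 (1.49, 0.0609) or WT array 2 (1.53, 0.0601). Among 27 TNF superfamily ligands and receptors 7 were higher and 7 lower. The ligand genes Tnfsf14 (LIGHT) and Cd40lg, the helper signal to B cells, fell by 0.99 and 0.72. The receptor genes Tnfrsf26 and Tnfrsf14 (HVEM, the receptor of LIGHT) rose by 1.41 and 0.77. The lower members of this family numbered 4 without KO array 1, KO array 3, WT array 1 or WT array 2.

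Il2 and Ccl3 are shown with their promoters, since both are known targets of NFAT and NF-kappa-B, the factors the receptor activates, and both are among the named falls. The windows run from 250 bases before to 50 after the start of the gene in RefSeq (GRCm38.p6), Il2 at chr3:37125905-37126204 and Ccl3 at chr11:83649329-83649628, both on the minus strand and written 5′ to 3′ in the direction of the gene. Capitals mark GGAAA, the core letters of NFAT and many NF-kappa-B sites, or TTTCC, the same letters on the other strand.
Il2: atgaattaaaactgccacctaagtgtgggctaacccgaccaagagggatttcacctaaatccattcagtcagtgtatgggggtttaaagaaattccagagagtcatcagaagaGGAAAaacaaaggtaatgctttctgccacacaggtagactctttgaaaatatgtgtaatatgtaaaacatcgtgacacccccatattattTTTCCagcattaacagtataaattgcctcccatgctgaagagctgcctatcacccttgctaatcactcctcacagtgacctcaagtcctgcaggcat
Ccl3: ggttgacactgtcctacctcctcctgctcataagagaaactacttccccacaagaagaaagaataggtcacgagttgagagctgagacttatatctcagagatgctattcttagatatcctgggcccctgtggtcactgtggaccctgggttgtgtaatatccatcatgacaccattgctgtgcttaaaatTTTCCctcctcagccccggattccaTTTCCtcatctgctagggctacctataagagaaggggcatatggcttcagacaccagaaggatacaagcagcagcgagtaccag
GGAAA stood on either strand in 27 of 29 cytokine genes with a promoter listed, whatever their change, or 93.1%, against 64.2% of 16990 tested genes with a listed promoter. In lists with rises it stood in 12 of 16 naive genes, or 75.0%, and in 7 of 8 Gimap genes, or 87.5%. A match of these short letters is a description of the window and says nothing of binding.

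Of 27 transcription factors and regulators of early activation 9 fell and 0 rose, with a median of -0.25, and the other 18, Egr1, Nr4a1, Fos and Irf4 among them, did not pass. Egr3 was at 8.86, 8.64 and 8.72 in KO and 9.54, 9.45 and 9.10 in WT. Nfkbid, an atypical I-kappa-B protein, was at 9.80, 9.92 and 9.83 in KO and 10.43, 10.45 and 10.42 in WT, and the NF-kappa-B subunit gene Rel at 10.23, 10.26 and 10.32 in KO and 10.71, 10.85 and 10.63 in WT. None of the 3 genes had overlapping groups, and the shifts were small next to that of Il2: -0.62 for Egr3, -0.59 for Nfkbid and -0.46 for Rel. Irf8 fell by 0.68. The activation markers Cd44 and Cd69 fell by 0.46 and 0.24. The Cd44 call ended without KO array 1 (-0.28, adjusted p = 0.16) or WT array 2 (-0.39, adjusted p = 0.0725), and that of Cd69 without KO array 2 (-0.22, adjusted p = 0.0535) or WT array 1 (-0.20, adjusted p = 0.0757). Il2ra, the alpha chain of the interleukin 2 receptor, was at 10.95, 10.91 and 10.89 in KO and 10.63, 10.72 and 10.62 in WT, a change of 0.26 that did not pass (adjusted p = 0.149).

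In the interleukin 2 and STAT5 list 5 of 16 genes rose and 2 fell, with 1 lower without KO array 2, KO array 3 or WT array 1. Bcl2, which protects lymphocytes from death, was at 9.48, 9.06 and 8.94 in KO and 8.21, 8.32 and 8.18 in WT. The cytokine signalling inhibitor genes Socs3 and Socs1 rose by 0.92 and 0.61 and the kinase gene Pim1 by 0.47. The call of Socs1 ended without KO array 1 (0.41, adjusted p = 0.0594), and that of Pim1 with the mean of its probe sets (0.22, adjusted p = 0.142). Bcl2l1, which encodes BCL-XL and is induced by CD28, moved the other way from Bcl2, at 7.14, 7.01 and 7.42 in KO and 7.78, 7.67 and 7.72 in WT. Of 15 BCL2 family genes 1 rose and 4 fell. The rises numbered 2 without KO array 1, KO array 2 or WT array 3 and 3 with quantile normalization run again, and the falls 1 without KO array 1, KO array 3 or WT array 1 and 2 without WT array 2 or with that normalization.

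Of 19 genes of the naive and quiescent state 10 rose and 0 fell, with a median of 0.40 against -0.05 over all genes. S1pr1, the receptor that lets lymphocytes leave lymph nodes, was at 8.08, 7.40 and 7.31 in KO and 6.38, 5.97 and 5.80 in WT. Klf2, the factor that keeps S1pr1 and L-selectin expressed, was at 6.97, 6.34 and 6.06 in KO and 5.38, 4.88 and 5.40 in WT. Both had fallen steeply in WT since 0 h, S1pr1 by 4.27 and Klf2 by 3.95, and lay between the naive and the WT 24 h level in KO. Satb1, a chromatin organiser of T cells, and Klf3 rose by 0.64 each. KO array 1 was the highest of the 6 arrays for all 4 genes.

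Of 8 Gimap genes, GTPases of lymphocyte survival that lie in 1 cluster, 6 rose and 0 fell, with a median of 0.60. Gimap4 was at 9.29, 8.57 and 8.67 in KO and 8.17, 7.80 and 8.06 in WT. Gimap8 rose by 0.81 and Gimap7 by 0.72. Among 25 genes of the T cell receptor and its proximal signalling 12 rose and 0 fell. There was 1 fall without KO array 1 or WT array 3. The list holds activators and brakes, and members of both kinds rose. Prkcq, the kinase PKC-theta that links the receptor to NF-kappa-B, was at 9.55, 9.35 and 9.23 in KO and 8.56, 8.86 and 8.82 in WT. Of the brakes, the phosphatase gene Ptpn22 (0.80), the diacylglycerol kinase gene Dgka (0.56) and the ubiquitin ligase gene Cblb (0.54) rose, whereas Csk (0.02), Ubash3a (0.05) and Dgkz (0.04) did not pass.

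Cdkn1b, the inhibitor p27 of cyclin-dependent kinases, was at 7.31, 6.89 and 6.82 in KO and 5.85, 5.93 and 6.03 in WT, 2.10-fold higher. Other inhibitor genes of the G1 list, such as Cdkn1a (-0.09) and Cdkn2d (0.26), did not pass. The MYC antagonist gene Mxd4 was at 6.91, 6.85 and 6.84 in KO and 5.72, 5.74 and 5.27 in WT, and its relative Mxd1 rose by 0.67. Myc itself, the driver of growth in activated T cells, was at 10.17, 10.32 and 10.33 in KO and 10.76, 10.72 and 10.67 in WT. All 3 genes had separate groups, with Mxd4 and Mxd1 up and Myc down by 0.44 (SE 0.09, adjusted p = 0.00137). In the whole MYC, MAX and MXD network 2 of 13 genes rose and 2 fell, Mga (-0.41) among the falls. The rest of the network, further MXD relatives included, did not pass. Rbl2, the retinoblastoma relative p130 of resting cells, rose by 0.54, and Trp53inp1, a p53 target, rose by 1.28. Of 20 p53 targets 4 rose and 2 fell, the death receptor gene Fas by 0.59 among the rises and Plk2 among the falls. In the list of 21 G1 cyclins, kinases and inhibitors 3 rose and 4 fell, the falls numbering 2 without KO array 1 or WT array 2 and 1 without KO array 2 or with quantile normalization run again.

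**Figure D3:**
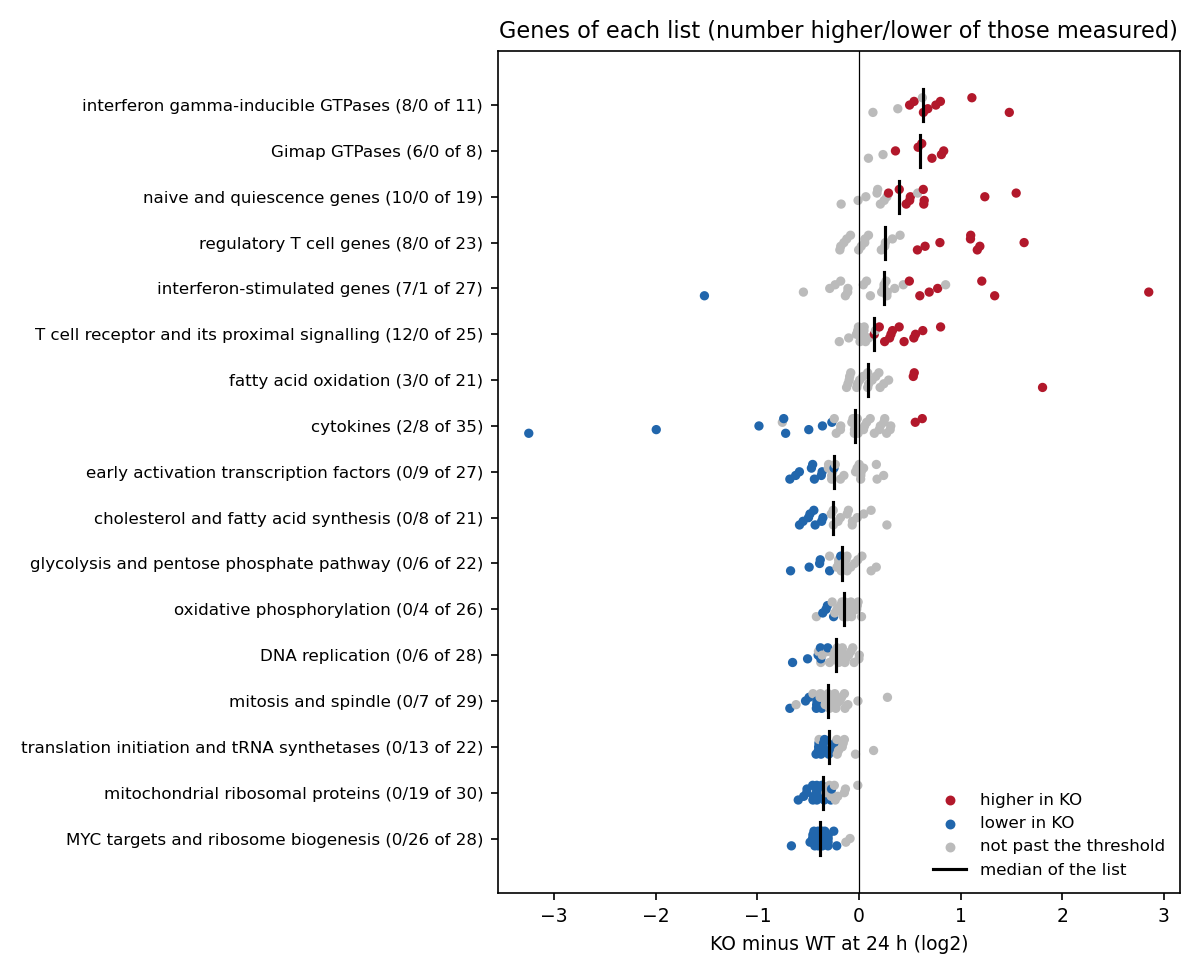
Change between KO and WT at 24 h (log2) of each gene in 17 lists, red for genes higher in KO, blue for genes lower in KO and grey for the rest, with black bars at the list medians. Medians run from 0.63 for interferon gamma-inducible GTPases and 0.60 for Gimap genes to -0.38 for MYC targets and ribosome biogenesis, where 26 of 28 genes were lower.

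Ribosome production had the largest share of falls of the 49 lists. Of 28 MYC targets and ribosome biogenesis genes 26 fell and 0 rose, with a median of -0.38. Rrs1, an assembly factor of the large subunit, was at 6.33, 6.79 and 6.80 in KO and 7.59, 7.15 and 7.19 in WT. Utp20, a part of the processome of the small subunit, was at 8.69, 8.73 and 8.86 in KO and 9.32, 9.24 and 9.17 in WT. The changes were modest, -0.67 for Rrs1, -0.48 for Utp20, -0.46 for the assembly chaperone gene Grwd1 and -0.44 for the RNA acetyltransferase gene Nat10, and the groups of all 4 were separate. Of 30 mitochondrial ribosomal protein genes 19 fell and 0 rose, with a median of -0.35, Mrpl50 by 0.60 and Mrpl2 by 0.54. Translation initiation factors and tRNA synthetases fell in 13 of 22 cases and rose in 0, with a median of -0.29. Examples are the synthetase complex gene Eef1e1 (-0.42) and the synthetase genes Tars (-0.40) and Eprs (-0.39). Without KO array 1 these counts were 16, 11 and 8, all still with 0 higher.

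Utp20 and Grwd1 are shown for the E-box that MYC binds, which both promoters hold. The windows are from RefSeq (GRCm38.p6), Utp20 at chr10:88826765-88827064 and Grwd1 at chr7:45830740-45831039, both on the minus strand, and capitals mark CACGTG, which reads the same on either strand.
Utp20: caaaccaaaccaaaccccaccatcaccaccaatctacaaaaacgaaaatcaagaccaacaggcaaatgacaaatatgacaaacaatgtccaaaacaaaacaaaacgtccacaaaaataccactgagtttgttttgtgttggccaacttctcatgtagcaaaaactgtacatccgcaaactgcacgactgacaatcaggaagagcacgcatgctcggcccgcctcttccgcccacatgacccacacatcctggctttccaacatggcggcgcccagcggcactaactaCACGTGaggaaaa
Grwd1: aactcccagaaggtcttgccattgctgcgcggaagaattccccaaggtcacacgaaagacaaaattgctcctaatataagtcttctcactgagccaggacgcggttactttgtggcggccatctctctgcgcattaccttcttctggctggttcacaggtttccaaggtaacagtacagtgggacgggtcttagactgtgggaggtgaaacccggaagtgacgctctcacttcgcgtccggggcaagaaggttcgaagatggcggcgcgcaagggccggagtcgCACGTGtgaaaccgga
CACGTG stood in 7 of the 24 ribosome biogenesis genes with a listed promoter, or 29.2%, in 3 of 23 mitochondrial ribosomal protein genes, or 13%, and in 9.19% of 16990 tested genes with a listed promoter. The Nat10 window holds no such letters, and Nat10 fell by 0.44. A window without these letters shows nothing about binding elsewhere.

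Metabolic lists leaned the same way with fewer calls. Falls made up 7.38% of all genes, and were also frequent among all genes at a mean level of 7 to 9, at 771 of 3653. Whether the lists depart from genes of their own level was not tested. Of 22 genes of glycolysis and the pentose phosphate pathway 6 fell and 0 rose. Hk2, the inducible hexokinase, was at 6.45, 6.78 and 6.90 in KO and 7.49, 7.39 and 7.27 in WT, and the glucose transporter gene Slc2a1 fell by 0.38. In the lipid synthesis list, cholesterol and fatty acid enzymes, 8 of 21 fell and 0 rose, with a median of -0.25. Hmgcs1, the synthase of the mevalonate pathway, fell by 0.59, Hsd17b7 by 0.55, the sterol sensor gene Insig1 by 0.50 and Sqle by 0.48. Cth, the enzyme that makes cysteine from cystathionine, was at 3.05, 3.11 and 3.03 in KO and 4.22, 3.65 and 4.25 in WT, 1 of 5 falls among 25 genes of amino acid supply. The tricarboxylic acid cycle had 5 of 20 lower (25%) and oxidative phosphorylation 4 of 26 lower (15.4%), with 0 higher in each.

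Without KO array 1 the lower genes numbered 2 for glycolysis, 3 for cholesterol and fatty acid synthesis, 1 for amino acid supply, 1 for the tricarboxylic acid cycle and 0 for oxidative phosphorylation. Sterol genes numbered 4 without WT array 1, where the cycle had 3, and amino acid genes numbered 3 without KO array 2 or WT array 1 and 8 without WT array 3. Oxidative phosphorylation had 1 call without WT array 2, 2 without KO array 2, WT array 1 or WT array 3, and 0 with quantile normalization run again, where glycolysis, amino acid supply and the cycle had 3 each. The Sqle call ended without KO array 1 (-0.43, adjusted p = 0.081) or WT array 1 (-0.45, adjusted p = 0.0598). Fatty acid oxidation went against the rest, with 3 of 21 genes higher and 0 lower, or 6 higher with quantile normalization run again. Acadm, the medium-chain acyl-CoA dehydrogenase, was at 10.33, 9.996 and 10.15 in KO and 8.40, 8.26 and 8.40 in WT, or 3.50-fold higher. Cpt1a, which lets fatty acids into mitochondria, rose by 0.54 and Acaa2, the last enzyme of a cycle of oxidation, by 0.53.

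Of 28 DNA replication genes 6 fell (21.4%) and 0 rose, with a median of -0.23. Of 29 genes of mitosis and the spindle 7 fell (24.1%) and 0 rose, with a median of -0.30. The share of falls was 7.38% over all genes, and at a mean level of 7 to 9 it was 771 of 3653. These lists too were not tested against genes of like level. Orc1, the subunit of the origin recognition complex that is made in G1, was at 6.31, 6.36 and 6.49 in KO and 7.04, 6.90 and 7.18 in WT. Its groups were apart, whereas the proliferation marker Mki67 (8.75, 8.65 and 8.86 in KO, 8.83, 8.75 and 9.25 in WT) overlapped and did not pass (-0.19, adjusted p = 0.391). Cdk1, the mitotic kinase, fell by 0.68, but not without KO array 1 (-0.48, adjusted p = 0.153) or WT array 3 (-0.60, adjusted p = 0.0681). The 7 mitotic calls became 0 without KO array 1 or WT array 3, 2 without KO array 2, 4 without WT array 1, 12 without WT array 2 and 1 with quantile normalization run again, which also called 1 gene higher. The replication calls numbered 3 without KO array 1.

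Interferon-stimulated genes were mixed, with more rises than falls. Of 27 such genes 7 rose and 1, Ifih1, fell, with a median of 0.25. Usp18 was at 8.46, 7.60 and 7.64 in KO and 5.04, 5.05 and 5.04 in WT, a gap of 2.85 over a flat WT level. The nucleic acid sensor gene Zbp1 was at 8.75, 8.12 and 8.31 in KO and 7.07, 6.87 and 7.24 in WT. Rtp4 rose by 1.21 and the signal transducer gene Stat2 by 0.77. Ifih1 went the other way, at 5.65, 5.27 and 5.27 in KO and 6.95, 6.87 and 6.94 in WT. In the Ifi200 list, which leaves out Ifi214, 3 of 9 genes rose, and Ifi208 stood at 5.65, 4.45 and 4.05 in KO and 2.50, 2.54 and 2.54 in WT. Of the 7 Schlafen genes only Slfn1, a gene of quiescent T cells, was called (1.16), and the other 6 lay between -0.24 and 0.35.

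The interferon gamma-inducible GTPases, which attack vacuoles of intracellular microbes, had 8 of 11 genes higher and 0 lower. Gbp8 was at 7.90, 7.09 and 7.30 in KO and 5.87, 5.97 and 6.01 in WT, and Gbp7 at 8.48, 7.47 and 7.80 in KO and 6.70, 6.54 and 7.17 in WT. KO array 1 was the highest for both. Only 2 of the 11 were called without KO array 1 and 5 without WT array 1. Ifng itself did not differ past the threshold, at 3.97, 4.28 and 4.03 in KO and 4.07, 4.06 and 4.37 in WT (change -0.07, adjusted p = 0.83).

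Of 23 genes of regulatory T cells 8 were higher in KO and 0 lower. Foxp3, their defining factor, was at 8.78, 8.01 and 8.36 in KO and 6.68, 6.90 and 6.69 in WT, 3.09-fold higher. Nt5e, which encodes the ectonucleotidase CD73, was at 6.98, 6.86 and 6.64 in KO and 5.67, 5.73 and 5.49 in WT. Ecm1 and Lrrc32, the surface anchor of latent TGF-beta, each rose by 1.10. The Lrrc32 call ended without KO array 1 (0.89, adjusted p = 0.0583), where 5 of the 23 genes were called. The list was not particular to 24 h, with 8 of 23 higher at 0 h, 7 at 4 h and 6 at 72 h.

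Of 15 T helper 1 genes 3 rose and 3 fell. Tbx21 (T-bet), the defining factor, was at 4.74, 4.49 and 4.62 in KO and 5.30, 4.99 and 5.78 in WT, and Eomes at 3.98, 3.50 and 3.89 in KO and 4.66, 4.65 and 4.81 in WT. Both levels were low in either genotype. The Tec kinase gene Txk rose by 0.97 and the chemokine receptor gene Cxcr3 by 0.51. With arrays 1 and 2 alone the calls of Tbx21 (-0.53, adjusted p = 0.107) and Cxcr3 (0.51, adjusted p = 0.0761) ended. Gata3 (0.29, adjusted p = 0.141), Il4 (-0.05, 0.824) and Il17a (0.04, 0.888) were not called, and Il4 and Il17a had means of 2.66 and 3.31 in KO and 2.71 and 3.26 in WT, below the median gene of 3.70 in KO and 3.71 in WT. Of 14 inhibitory receptors and ligands 1 rose and 2 fell. The rises numbered 0 without KO array 2, WT array 2 or WT array 3 and 2 without WT array 1 or with quantile normalization run again, and the falls 1 without KO array 1 or WT array 1. Pdcd1 (PD-1) fell by 0.58 and its ligand Cd274 by 0.44. The Pdcd1 call ended without KO array 1 (-0.48, adjusted p = 0.0559) and that of Cd274 without WT array 1 (-0.38, adjusted p = 0.0525). Crtam, an adhesion receptor of cytotoxic CD4 and CD8 cells counted here among the CD8 markers, was at 6.34, 6.73 and 6.62 in KO and 7.82, 7.62 and 7.89 in WT.

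Genes were also sorted by what stimulation did to them in WT on arrays outside this comparison, those of 0 and 4 h. Among the 3737 genes (16.8%) raised in WT at 4 h, 30.5% were lower and 2.38% higher in KO at 24 h. Among the 3958 genes (17.8%) lowered in WT at 4 h, 15.3% were higher and 2.30% lower. The 14485 genes without a called response had 1.17% higher and 2.80% lower. Calls were also fewer among dim genes, and the classes were not matched for level or spread. The sorting and the 24 h test share 1 estimate of the spread of each gene, so a gene of low spread is more easily called in both. The split was wider for larger responses: of 137 genes raised at least 4-fold 47.4% were lower in KO, and of 204 genes lowered at least 4-fold 49.0% were higher. Sorting by WT at 72 h against 0 h, with 4918 genes raised (22.2%) and 4068 lowered (18.3%), gave 25.1% lower and 2.64% higher among the raised, and 14.2% higher and 2.41% lower among the lowered. In both sortings the calls lay mostly on the side opposite to the WT response.

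With quantile normalization run again 19.3% of the genes raised at 4 h were lower and 20.3% of the genes lowered at 4 h were higher. Without KO array 1 these shares were 15.1% and 9.04%, and without WT array 1 they were 18.8% and 13.7%, each above the share in the other direction. For responses of at least 4-fold and without KO array 1, 29.2% of the raised genes were lower and 35.8% of the lowered genes were higher. In the sorting by 72 h the raised genes were lower in 12.1% without KO array 1, 15.8% without WT array 1 and 16.2% with that normalization, and the lowered genes were higher in 8.78% without KO array 1.

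**Figure D4:**
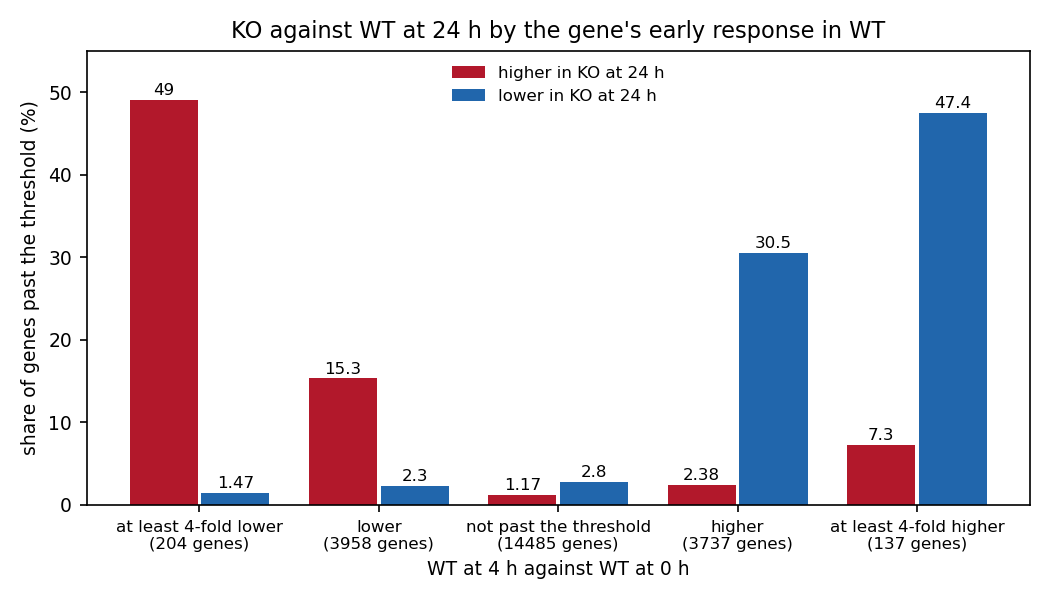
Share of genes (%) called higher (red) or lower (blue) in KO at 24 h, by how the gene responded in WT at 4 h against 0 h on other arrays. The share higher in KO is 49.0% among genes lowered at least 4-fold in WT, and the share lower in KO is 47.4% among genes raised at least 4-fold.

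The comparison of KO and WT at the other times used other arrays. Before stimulation 2.34% of all genes passed, 1.76% higher and 0.577% lower in KO. After 4 h 4.13% passed, 3.3% higher and 0.834% lower. The share was 6.33% by 72 h, with 2.56% higher and 3.78% lower. Of the 865 genes higher at 24 h, 128 were also higher at 0 h (14.8% of the 24 h list and 32.8% of the 0 h list), 292 at 4 h (33.8% and 39.9%) and 176 at 72 h (20.3% and 31.0%), and 45 at all times. Of the 1636 genes lower at 24 h, 26 were also lower at 0 h (1.59% of the 24 h list and 20.3% of the 0 h list), 65 were at 4 h (3.97% and 35.1%), 114 were at 72 h (6.97% and 13.6%), and 4 at all times. No call in the same direction at any other time was made for 455 of the higher genes (52.6%) and for 1457 of the lower genes (89.1%). A missing call is not a test of a difference between times. Some calls had the opposite sign at 72 h, 88 of the higher and 68 of the lower genes.

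The 24 h difference was tested against the mean of the differences at 0, 4 and 72 h in the same fit. It passed for 1676 genes (7.56%), 464 above (2.09%) and 1212 below (5.46%), with 733 left on dropping KO array 1 and 1046 on dropping WT array 1. Of the 865 genes higher at 24 h 364 (42.1%) passed above, and of the 1636 lower 912 (55.7%) passed below. The calls and this test share the arrays of 24 h. Il1a lay lowest, with a 24 h difference 3.24 below that of the other times, where it was -0.17 at 0 h, -0.01 at 4 h and 0.14 at 72 h. Il2 lay 2.16 below, and the KO minus WT differences of the other times were 0.17, 0.27 and 0.04. Ifitm2 (-1.74), Ccl3 (-1.64) and Mt1 (-1.60) followed. Ccdc152 lay 3.34 above, with differences of 0.12, 0.06 and 0.42 at 0, 4 and 72 h, and Ifi208 (2.71), Ifi214 (2.43), Ifi209 (2.34) and Ifi213 (2.30) came next. The 4 Ifi200 genes were lower in KO at 72 h, from -0.92 for Ifi214 to -1.83 for Ifi208.

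The naive list had 10 of 19 genes higher at 24 h, against 0 at 0 h, 3 at 4 h and 4 at 72 h, and 8 of the 19 passed the test against the other times. Ribosome biogenesis genes had 26 of 28 lower at 24 h, against 0 at 0 h, 2 at 4 h and 1 at 72 h, and 19 passed that test. Interferon-stimulated genes had 5 of 27 higher and 0 lower at 4 h, and 7 higher and 1 lower at 24 h. At 72 h 0 of them were higher and 25 lower, with a median of -1.25. The GTPases had 7 of 11 higher at 4 h and 8 at 24 h, with medians of 0.80 and 0.63. At 72 h 10 of the 11 were lower. Their rise was thus not particular to 24 h, and the mean of the other times in the test includes the falls at 72 h. Of 21 sterol genes 11 were lower at 4 h and 8 at 24 h, whereas 9 were higher at 72 h. By contrast Pgpep1l differed by 4.09, 4.36, 4.71 and 3.42 at 0, 4, 24 and 72 h, and Acadm by 0.84, 1.80, 1.81 and 2.39, so these genes were higher in KO throughout.

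**Figure D5:**
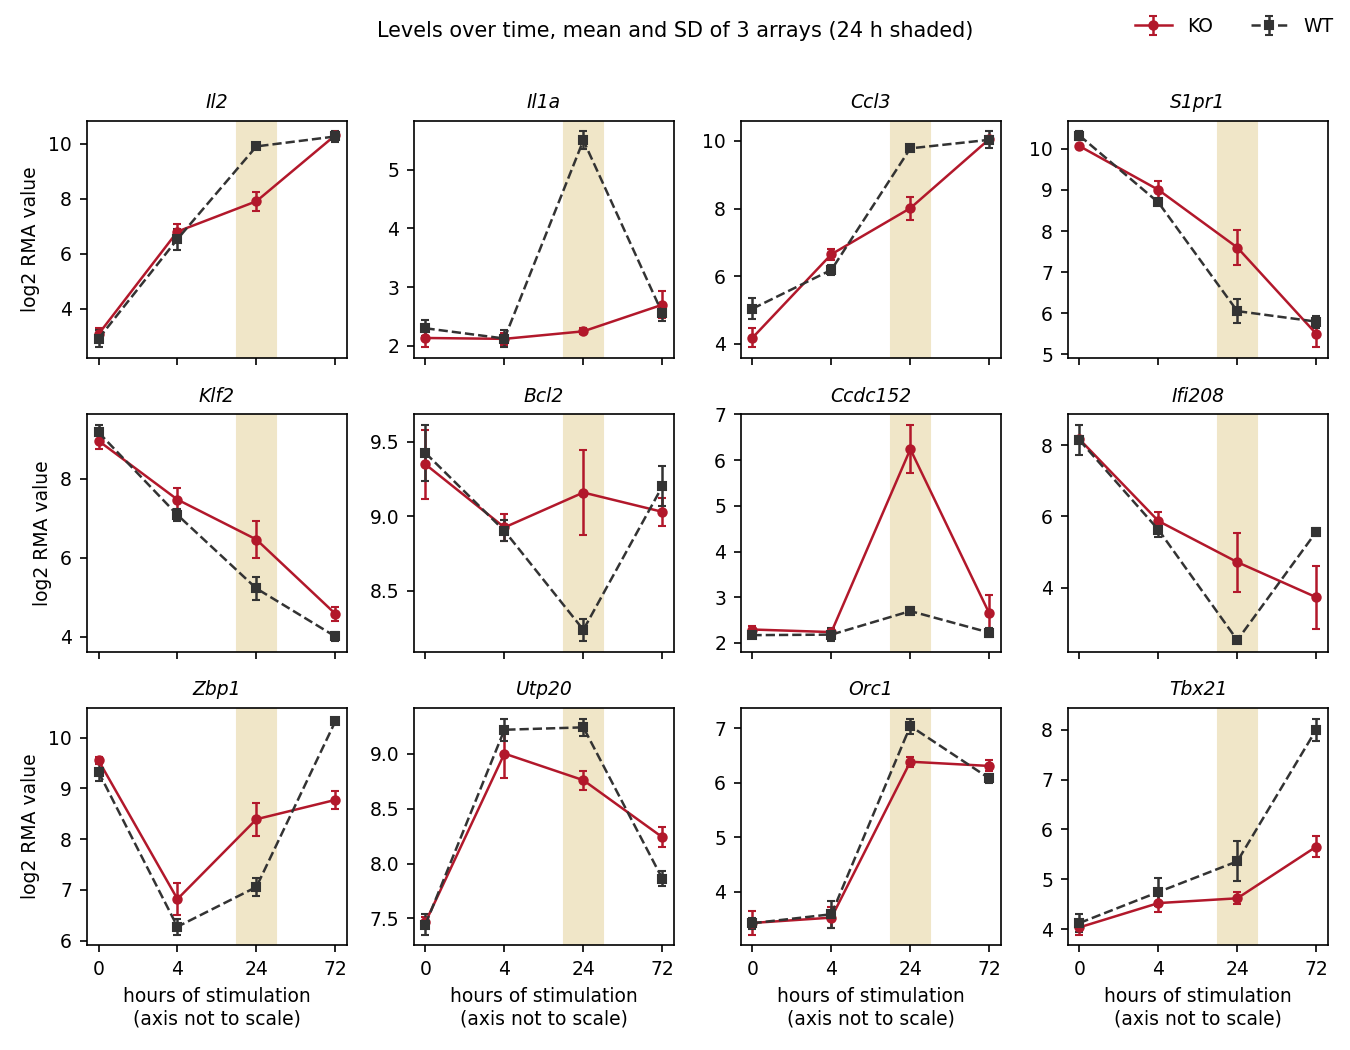
Mean log2 RMA value ± SD of 3 arrays at 0, 4, 24 and 72 h for 12 genes, KO in red and WT in black, with 24 h shaded. The Il2 lines are apart at 24 h, with KO below, and 0.04 apart at 72 h, Il1a is raised at 24 h in WT alone, Ccdc152 at 24 h in KO alone, and Ifi208 and Zbp1 are higher in KO at 24 h and lower at 72 h.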

How the data were processed

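RNA of 24 samples was hybridised to Affymetrix mouse arrays, 3 for each genotype at each time. The deposited log2 values are RMA values, for which the submitters' processing notes name oligo and R 3.1.0. The number of arrays limits the precision. Of 41345 probe sets 23521 had 1 gene symbol in the platform annotation, 1814 several and 16010 none, and 22180 genes remained with no filter on low values. A model of 8 group means over the 24 arrays was fitted with limma 3.58.1 in R 4.3.3 (eBayes with a mean-variance trend, 2-sided), with Benjamini-Hochberg adjustment over all genes. The test was tried on simulated data. The labels do not tie arrays to separate animals. By Xist and Eif2s3y array 3 held male cells and arrays 1 and 2 female cells, so the arrays of a genotype do not all share 1 animal. The p-values measure the spread between arrays, which may be technical in part. Named genes are the 15 highest and 15 lowest changes among called genes without overlap between groups (predicted genes, clones, small RNAs, pseudogenes and receptor segments left out), up to 5 called members of each of 49 lists with the largest changes, T cell and activation markers, and the extremes of the other comparisons. Ms4a1, Cd79a and H2-Aa were added after their values were seen. Members and lists were chosen with earlier results of these data known. The main model took the array numbers as no pairs and held no term for sex. Deviations of same-numbered KO and WT arrays at 24 h correlated at 0.114, 0.0690 and 0.148 over all genes, and those of the other combinations from -0.131 to 0.0125. These values do not decide whether the arrays are pairs. Alternatives changed the probe set rule, filter, normalization, arrays, block, trend and threshold.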

Additional observations from a re-analysis of the deposited data

Results flagged for a closer look

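The genes given here had a difference between KO and WT at 24 h that differed from the mean of the differences at 0, 4 and 72 h (adjusted p below 0.05, limma, over all genes), and each value is that 24 h difference minus the mean of the others, on the log2 scale. Of the genes named in the text 49 lay above and 41 below. Cytokine, chemokine and TNF family genes that lay below were Il1a (-3.24), Il2 (-2.16), Ccl3 (-1.64), Ccl4 (-1.05), Pdgfb (-1.27), Tnfsf14 (-1.29) and Cd40lg (-0.60). Other deep falls that lay below were Ifitm2 (-1.74), Mt1 (-1.60), Rpp25 (-1.41), Eea1 (-1.36), Ptger2 (-0.97), Spin4 (-0.68), Ifih1 (-0.81), Plk2 (-0.65) and Rgs2 (-1.27). Pdcd1 (-1.03) also lay below, with a smaller change of -0.58 at 24 h itself. Activation factors and signalling genes below were Egr3 (-0.92), Nfkbid (-0.51), Rel (-0.47), Dusp6 (-0.54), Rgs1 (-0.70), Bcl2l1 (-0.70) and Dnmt3a (-0.41). Ribosome, translation and mitochondrial ribosome genes below were Rrs1 (-0.70), Utp20 (-0.54), Grwd1 (-0.44), Nat10 (-0.36), Mrpl50 (-0.64), Mrpl2 (-0.60), Eef1e1 (-0.34), Tars (-0.36) and Eprs (-0.29). Metabolic and cell cycle genes below were Slc2a1 (-0.38), Hk2 (-0.48), Hmgcs1 (-0.49), Cth (-0.62), Orc1 (-0.71) and Mki67 (-0.58). The targeted gene and a glutathione transferase gene below were Trim28 (-0.64) and Gstt2 (-0.69). Interferon-linked genes that lay above were Ifi208 (2.71), Ifi214 (2.43), Ifi209 (2.34), Ifi213 (2.30), Usp18 (1.94), Zbp1 (1.59), Rtp4 (1.42), Stat2 (0.97), Gbp8 (1.45), Gbp7 (1.14) and Slfn1 (1.47). The mean of the other times includes 72 h, when 25 of 27 interferon-stimulated genes and 10 of 11 GTPases were lower in KO. These values are therefore not rises at 24 h alone. Genes of the naive state, Gimap genes and receptor signalling genes above were S1pr1 (1.63), Klf2 (0.99), Satb1 (0.77), Gimap4 (0.83), Gimap8 (0.63), Gimap7 (0.73), Ptpn22 (0.70), Prkcq (0.68), Dgka (0.38), Cblb (0.65), Txk (0.92) and Cd2 (0.71). MXD genes, cell cycle inhibitors, p53 targets and survival genes above were Mxd4 (1.15), Mxd1 (0.93), Cdkn1b (0.75), Rbl2 (0.34), Trp53inp1 (1.10), Fas (0.62), Bcl2 (0.99), Socs3 (0.71) and Pim1 (0.55). The remaining genes above were Pgpep1l (0.75), Ccdc152 (3.34), Ly6d (0.96), M1ap (1.12), Slc28a2b (1.05), Klhl6 (0.50), Otud1 (0.55), Selenop (1.18), Gstt4 (0.60), Tnfrsf26 (1.42), Tnfrsf14 (0.51), Nt5e (0.94), Ecm1 (0.96), Trim24 (0.37), Chd3 (0.43), Rgs14 (0.83) and Id2 (0.50). Mki67 was not called at 24 h itself, and its differences were 0.54 at 0 h, 0.46 at 4 h and 0.17 at 72 h.

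A signal also stood in probe sets that the comparison leaves out. Of 17824 probe sets listed with several genes or with none, 159 (0.892%) passed the threshold between KO and WT at 24 h, 111 higher and 48 lower. They are unnamed here.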

How the results depend on the processing

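Of the 138 genes named in the text 127 passed the threshold, 112 of them under every alternative and 115 without each array of 24 h in turn, and 0 changed direction. Pax5 and Bank1 are not counted among the named genes of this section. The 2501 calls ran from 1269 to 2299 when an array was left out, the 865 higher from 514 to 805 and the 1636 lower from 755 to 1544. The 1676 genes whose 24 h difference departed from the other times ran from 733 to 1625. KO array 1 gave the lowest count in each case. At an adjusted p below 0.01 the counts were 1324 in all, 555 higher, 769 lower and 650 for the departure, and with at least a 2-fold change 129, 104 and 25. Quantile normalization run again gave 1009 lower, and arrays 1 and 2 alone gave 944 for the departure. With the replicate number as a replicate block 2588 genes passed over all arrays (907 higher, 1681 lower) and 2481 over the arrays of 24 h alone (921 and 1560), with 1718 for the departure, and the block ended no call of a named gene but added Cd79a, H2-Aa and Ms4a1 (adjusted p = 0.00781, 0.00282 and 0.0312 over all arrays) and, with the arrays of 24 h alone, also Cd4 (0.0423) and Il2ra (0.0091). Over all genes each 24 h array correlated best with the array of the other genotype that had its own number, a hint from the data and not the design, which did not hold for KO array 2 and WT array 3 without X and Y genes. Sorting genes by the WT response without KO array 1 or WT array 1 was chosen after seeing the data. Small changes of dim genes are limited by signal near background.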

Other observations

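Among 10 regulators of G protein signalling 2 rose and 3 fell. Rgs2, which dampens Gq signalling, stood at 6.83, 7.40 and 7.24 in KO and 8.48, 8.24 and 8.33 in WT, Rgs1 fell by 0.48 and Rgs14 rose by 0.80. The rises numbered 1 without KO array 1, KO array 2, WT array 1 or WT array 3. Dusp6, the phosphatase that restrains ERK, stood at 9.15, 9.28 and 9.13 in KO and 9.86, 9.82 and 9.69 in WT, the 1 fall beside 1 rise among 15 genes of that kind. The falls numbered 2 without KO array 3 and the rises 2 with quantile normalization run again.

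Of 16 chemokine receptor genes 3 were higher and 0 lower, with 1 higher without KO array 1 and 1 lower without WT array 3. Of 20 TGF-beta pathway genes 3 were higher and 0 lower, with 0 higher without KO array 1 and 1 without WT array 3. Of 26 imprinted genes 1 was higher, and 0 were without any 1 array other than WT array 3. Of 16 cytotoxic genes 0 passed in limma in either direction. The interleukin 1 family list, which holds Il1a, had 1 of 17 genes higher and 2 lower. The rises numbered 0 without KO array 1, WT array 1, WT array 2 or WT array 3 and 2 without KO array 2.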
